A study of Mus musculus with 24 samples.

Results

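The comparison described here set the pancreas of wild-type mice 24 h into caerulein pancreatitis against the pancreas of wild-type mice given saline, and it used 6 of the 24 libraries of the series, 3 for each group. The 24 h mice were C57BL animals with both Nr5a2 copies intact (+/+) that had received 7 hourly intraperitoneal injections of caerulein at 50 µg/kg and were killed 24 h after the first. The saline mice had the same strain and genotype, and their injection schedule, like the age and sex of all animals, is not given in the sources used here. The remaining libraries were wild type at 8 and 48 h and Nr5a2 heterozygotes at the same times and in saline, and the series compared the genotypes at rest and after injury. Each library was poly(A) RNA of whole pancreas from a different animal, so every value below is a tissue average, in which fewer cells of a type and less RNA per cell cannot be told apart.

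Caerulein is a relative of the gut hormone cholecystokinin. At doses above those that drive secretion it makes acinar cells, the enzyme-making cells that form most of the pancreas, retain and activate their own zymogens, and the tissue swells, takes up leukocytes and repairs itself over days. During that repair, acinar cells are known to lose their secretory products for a time, to switch on genes of duct and embryonic cells (acinar-to-ductal metaplasia) and to divide. NR5A2 is an orphan nuclear receptor that works with PTF1, GATA and other factors to keep acinar genes on.

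The unit of all levels is FPKM, as the authors deposited it, which counts fragments relative to transcript length and library size. Fold changes are 24 h minus saline on the log2(FPKM + 1) scale, which understates the change of genes near or below 1 FPKM, and they come from a limma fit over all 24 libraries with Benjamini-Hochberg adjustment over all genes tested and a threshold of 0.05. Of 12851 genes tested, 2630 were higher (20.5%) and 2403 lower (18.7%) in 24 h mice, 39.2% in all, and 6115 had an unadjusted p under 0.05. The median over all genes tested was 0.05. A rise of at least 1 log2 unit was found for 1004 of the called genes and a fall of at least 1 for 908. Ranges of the 3 and 3 libraries lay apart for 43.8% of the genes tested.

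Falls were more frequent among abundant genes. Of the 306 genes with a mean of at least 100 FPKM, 55.6% fell and 17.3% rose, with a median of -0.75, whereas of the 7298 genes under 5 FPKM 12.8% fell and 19.2% rose. The table's summed FPKM was 390241, 410872 and 435002 in 24 h mice, against 942284, 1007572 and 866120 in saline mice. Shares of it are given over genes with an estimate in each of the 8 groups of the series. This leaves out several abundant enzymes that read 0 throughout saline and the granule proteins Cuzd1 and Dmbt1, which read 0 in all 24 h mice. It also leaves out Clu, a granule list member that rose, because heterozygous 24 h mice have no estimate for it. On that basis digestive enzymes and granule proteins made up 12.71%, 16.01% and 14.37% in 24 h mice, against 40.97%, 51.33% and 49.96% in saline mice (exact permutation test, two-sided p = 0.1, the smallest that 3 against 3 can give). With every gene of the table as listed, zeros included, a sum added after seeing the data, they made up 26.83%, 30.61% and 29.13% in 24 h mice, against 41.18%, 51.42% and 50.09% in saline mice. Reg lectins made up 20.01%, 16.03% and 25.43% in 24 h mice, against 7.311%, 4.524% and 9.65% in saline mice (exact permutation test, p = 0.1), while their own sum overlapped between the groups, at 64400, 53200 and 90000 FPKM in 24 h mice, against 68200, 45100 and 82700 FPKM in saline mice. The split between higher and lower depended on which scaling was used. By the median ratio between libraries, over genes above 1 FPKM in all 24, 2783 genes were higher and 2306 lower, with a median of 0.08. Scaled to the total FPKM without enzymes, granule proteins and Reg genes, 7194 genes were higher and 491 lower and the median of all genes moved up by 0.64 to 0.69. Scaled to the protein-coding part of that total, 4390 were higher and 1385 lower, with a shift of 0.26 to a median of 0.31. The total was 216555, 225453 and 212908 FPKM in 24 h mice, against 482387, 439853 and 346087 in saline mice. Its protein-coding part was 143807, 137736 and 153725 FPKM, against 183964, 195225 and 184864. Scaling to the total thus also depends on features not listed as protein-coding, which took up more of it in saline mice, and is no correction for enzymes alone.

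Of 10 acinar markers tested, 9 fell and none rose, and their sum was 20000, 26300 and 25300 FPKM in 24 h mice, against 233000, 308000 and 260000 FPKM in saline mice, so the acinar sum was still the largest of the marker sums at 24 h. Markers of intestinal epithelium, which could enter with duodenum, summed to 0.534, 1.57 and 0.687 FPKM in 24 h mice, against 0.284, 0.176 and 1.57 FPKM in saline mice, with Apoa4, Cdx2, Fabp2 and Sis at 0 in all 6. Libraries correlated at r = 0.8818 to 0.9099 among 24 h mice, at 0.9283 to 0.9314 among saline mice and at 0.778 to 0.859 between the groups. RNA integrity numbers of 6.6 to 9.2 are given for the series and not per library. Saline replicate 3 is in neither list of library preparation guides in the labels, while the other 5 libraries share the earlier guide. Replicate 1 of the 24 h mice stood above replicates 2 and 3 for leukocyte genes, and several of the counts that rest on it are given with and without it.

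Digestive enzymes fell. Of the 26 listed, 13 could be tested, 11 fell and none rose, with a median of -2.98 against 0.05 over all genes. Colipase (Clps), the cofactor of pancreatic lipase, had 4370, 6290 and 5870 FPKM in 24 h mice, against 90500, 116000 and 103000 FPKM in saline mice (log2 fold change -4.24, SE 0.68, adjusted p = 8.53e-05). The groups were far apart, with no overlap. Cela3b, a chymotrypsin-like elastase, had 4320, 5960 and 6380 FPKM in 24 h mice, against 34600, 58500 and 39500 FPKM in saline mice (log2 fold change -2.98, SE 0.60, adjusted p = 0.000644). Pla2g1b, the phospholipase A2 of pancreatic juice, had 950, 894 and 514 FPKM in 24 h mice, against 7040, 10100 and 10100 FPKM in saline mice (log2 fold change -3.56, SE 0.72, adjusted p = 0.000755). No 24 h value of either reached the saline range. Ctrl, a chymotrypsin-like protease, and Rnase1, the secreted ribonuclease, moved by similar amounts, at -3.30 (adjusted p = 0.00335) and -3.13 (adjusted p = 0.0043). The trypsinogens Prss1 and Prss3 did not pass: Prss3 had 162, 233 and 285 FPKM in 24 h mice, against 84.7, 199 and 368 FPKM in saline mice (log2 fold change 0.26, adjusted p = 0.826). Its groups overlapped. Near-identical copies among the trypsinogens, amylases and Cela3 genes may share reads, so their single values are uncertain.

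The table does not carry both groups for several of the most abundant enzymes. Cpb1, a carboxypeptidase, had 8260, 8850 and 8780 FPKM in 24 h mice and is listed at 0 in each saline mouse. Cela2a, an elastase, had 21300, 19900 and 23700 FPKM in 24 h mice and Pnliprp1, a lipase relative, 10800, 12400 and 12700 FPKM, and both are listed at 0 in saline. Cel, Cpa1 and Try4 have the same pattern. Cuzd1 and Dmbt1, granule proteins, have the opposite one, listed at 0 in 24 h mice and at 1190 to 1690 and 3450 to 3860 FPKM in saline mice. Zeros of this kind, found for 21 genes, were taken as missing estimates and not as absence, and no fold change was computed. A chymotrypsinogen (Ctrb1) and the amylases Amy2b and Amy2a5 read 0 throughout.

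Granule proteins and other secreted acinar products followed, with 6 of 11 tested lower and 1 higher (median -1.82). Syncollin (Sycn), a zymogen granule membrane protein, had 3070, 5040 and 4650 FPKM in 24 h mice, against 33400, 41000 and 30500 FPKM in saline mice (log2 fold change -3.06, SE 0.68, adjusted p = 0.00151). Tff2, a trefoil peptide, had 647, 828 and 665 FPKM in 24 h mice, against 6770, 10400 and 8670 FPKM in saline mice (log2 fold change -3.58, SE 0.64, adjusted p = 0.000244). Serpini2, a serine protease inhibitor of the pancreas, had 98.9, 115 and 91.3 FPKM in 24 h mice, against 1360, 1410 and 1250 FPKM in saline mice (log2 fold change -3.71, SE 0.92, adjusted p = 0.00392). In all 3 genes every 24 h mouse lay below every saline mouse. Clusterin (Clu), a secreted chaperone also counted among dedifferentiation markers, was the member that rose, with 6100, 6580 and 11300 FPKM in 24 h mice, against 923, 1180 and 1010 FPKM in saline mice (log2 fold change 2.89, SE 0.26, adjusted p = 4.79e-07). Spink1, the secretory trypsin inhibitor, had 3090, 3310 and 4540 FPKM in 24 h mice, against 4760, 7610 and 7310 FPKM in saline mice (log2 fold change -0.84, adjusted p = 0.142).

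**Figure D1:**
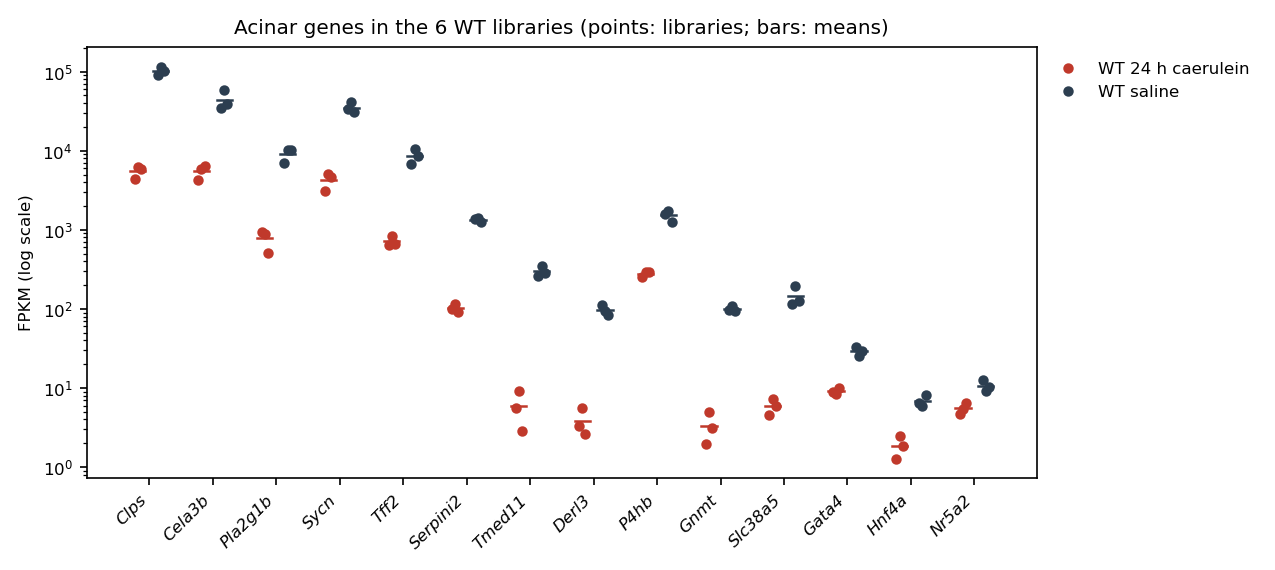
FPKM on a log axis of 14 acinar genes in the 3 WT 24 h libraries (left of each pair) and the 3 WT saline libraries (right), with points for libraries and bars for means. Clps lies at 4370 to 6290 in 24 h mice and at 90500 to 116000 in saline mice, and no gene plotted has overlapping groups.

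Promoter stretches of Cela3b and Sycn are shown because they hold the letters CAAGGNCA, a core that NR5A2 is known to bind, searched on both strands in the window from 250 bases before to 50 bases after the start of each RefSeq gene (GRCm38.p6). The match held in 7 of 22 windows of digestive enzymes (31.8%) and in 4 of 9 of granule proteins (44.4%), against 6.71% of all 32851 windows. Of the 7 enzymes with a match 5 fell and 2 had missing estimates, beside 11 of the 13 enzymes tested that fell with or without it, and of the 4 granule proteins with a match 2 fell, 1 (Klk1b11) did not pass and 1 was not tested. The Cela3b stretch is chr4:137430594-137430671 (- strand) and the Sycn stretch chr7:28540733-28540846 (+ strand), 5′ to 3′ along the gene, with the match in capitals; in Cela3b it reads on the opposite strand, and Sycn holds it at both 117 and 81 bases before its start.
Cela3b: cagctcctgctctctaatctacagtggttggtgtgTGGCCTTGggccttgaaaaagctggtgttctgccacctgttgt
Sycn: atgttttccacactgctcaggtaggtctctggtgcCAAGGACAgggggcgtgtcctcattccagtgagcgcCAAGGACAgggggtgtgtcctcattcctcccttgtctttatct

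Reg lectins, small secreted proteins known as products of injured pancreas, were mixed. Of 6 members tested 3 rose, 3 did not pass and none fell, and the ranges lay apart downward for 2 that did not pass (Reg1 and Reg3d). Reg3g had 2220, 1950 and 4200 FPKM in 24 h mice, against 56.6, 13.3 and 115 FPKM in saline mice (log2 fold change 5.85, SE 0.83, adjusted p = 3.63e-05), the largest rise by the rule for named genes. Reg3b, also called Pap, had 18300, 12700 and 28000 FPKM in 24 h mice, against 1360, 189 and 2450 FPKM in saline mice (log2 fold change 4.44, SE 0.89, adjusted p = 0.000701). Both were far above every saline mouse, and saline mice themselves spread widely, so that Reg3b in 1 of them was at 189 FPKM. Reg3a had 1370, 1030 and 1400 FPKM in 24 h mice, against 108, 19.8 and 695 FPKM in saline mice (log2 fold change 3.43, SE 1.15, adjusted p = 0.0257). It lost its call without 24 h replicate 1 or 3 or saline replicate 1 or 2. Reg1 had 26100, 22200 and 34100 FPKM in 24 h mice, against 61700, 40700 and 61700 FPKM in saline mice (log2 fold change -0.99, adjusted p = 0.17). Reg2 had 16000, 14900 and 21700 FPKM in 24 h mice, against 3700, 3530 and 16800 FPKM in saline mice (log2 fold change 1.52, adjusted p = 0.281). Neither passed the test, and Reg2 in saline replicate 3 lay among the 24 h values. Reg genes are close copies, so reads may be shared among them.

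The letters TTCNNNGAA, which STAT factors are known to bind, were found in 2 of 7 windows of the Reg family (Reg3b and Reg3d), against 8.30% of all windows. The Reg3b stretch, chr6:78370721-78370799 (+ strand), is given because Reg3b is among the most strongly induced genes; Reg3d, with the same letters, had 424, 410 and 557 FPKM in 24 h mice, against 1260, 621 and 917 FPKM in saline mice and did not pass (adjusted p = 0.309).
Reg3b: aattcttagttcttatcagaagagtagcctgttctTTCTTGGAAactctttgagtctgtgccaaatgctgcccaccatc

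Several acinar transcription factors were also lower. Of 14 tested 9 fell and 2 rose, with a median of -0.80 and of -0.12 when scaled to the total (0.69 over all genes), where 2 were lower. Nr5a2 had 4.64, 5.48 and 6.44 FPKM in 24 h mice, against 12.6, 9.26 and 10.2 FPKM in saline mice (log2 fold change -0.84, SE 0.19, adjusted p = 0.00169). Every 24 h mouse was below every saline mouse, and the fold change was -0.01 (adjusted p = 0.983) when scaled to that total. It was -0.51 (adjusted p = 0.0421) when scaled to the protein-coding total and -0.81 (adjusted p = 0.00183) by the median ratio. Gata4, a GATA factor of acinar cells, had 8.78, 8.42 and 9.93 FPKM in 24 h mice, against 33.3, 25.1 and 29 FPKM in saline mice (log2 fold change -1.58, SE 0.25, adjusted p = 7.56e-05). Hnf4a, a nuclear receptor of endodermal epithelium, had 1.28, 2.46 and 1.82 FPKM in 24 h mice, against 6.48, 5.87 and 8.21 FPKM in saline mice (log2 fold change -1.47, SE 0.20, adjusted p = 2.05e-05). Bhlha15 (Mist1), which scales up the secretory machinery, had 12.2, 21.9 and 16.3 FPKM in 24 h mice, against 74.5, 71.6 and 76.7 FPKM in saline mice (log2 fold change -2.12, adjusted p = 0.00145). For these 3 factors too the groups lay apart. Ptf1a and Rbpjl, subunits of the PTF1 complex, changed by -1.14 (adjusted p = 0.0437) and -1.74 (adjusted p = 0.00165). Rbpj, the Notch effector that takes the place of Rbpjl in embryonic PTF1, was higher, with 6.85, 6.16 and 5.98 FPKM in 24 h mice, against 3, 2.85 and 2.54 FPKM in saline mice (log2 fold change 0.95, SE 0.16, adjusted p = 0.000112). The exceptions to the falls include Xbp1, the transcription factor of the unfolded protein response. It had 359, 334 and 677 FPKM in 24 h mice, against 322, 340 and 291 FPKM in saline mice (log2 fold change 0.45, adjusted p = 0.198). Replicate 3 of the 24 h mice was the highest library, and replicate 2 lay among the saline values.

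Genes that couple a stimulus to secretion fell in part. Of 16 genes tested 8 fell and 1 (Stx3) rose, with a median of -0.61 that was 0.25 when scaled to the total, where 4 were lower and 4 higher. Aqp12, an acinar aquaporin, had 15.5, 31.5 and 22.2 FPKM in 24 h mice, against 288, 413 and 307 FPKM in saline mice (log2 fold change -3.84, SE 0.44, adjusted p = 2.67e-06). Rab3d, a small GTPase of zymogen granules, had 15.1, 18.3 and 15.7 FPKM in 24 h mice, against 67.7, 71.5 and 64.2 FPKM in saline mice (log2 fold change -1.99, SE 0.23, adjusted p = 3.41e-06). Gjb1, a gap junction protein that couples acinar cells, had 6.81, 9.03 and 10 FPKM in 24 h mice, against 41.5, 53.6 and 40.1 FPKM in saline mice (log2 fold change -2.26, SE 0.31, adjusted p = 2.02e-05). Groups did not overlap for any of these. Cckar, the cholecystokinin receptor through which caerulein acts, had 117, 131 and 148 FPKM in 24 h mice, against 222, 209 and 195 FPKM in saline mice (log2 fold change -0.66, adjusted p = 0.2).

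Most genes of protein export fell. Of 37 genes of translocation into the endoplasmic reticulum and early transport, 31 fell and none rose (median -1.11), and when scaled to the total 9 were lower and 5 higher, with a median of -0.22 against 0.69 over all genes. Tmed11, a p24-family cargo receptor, had 5.58, 9.09 and 2.84 FPKM in 24 h mice, against 262, 350 and 283 FPKM in saline mice (log2 fold change -5.55, SE 0.47, adjusted p = 1.21e-07), the largest fall by the rule for named genes. Srp9, part of the signal recognition particle, had 23.6, 20 and 29.8 FPKM in 24 h mice, against 153, 141 and 120 FPKM in saline mice (log2 fold change -2.46, SE 0.25, adjusted p = 8.04e-07). Mcfd2, which carries cargo from the endoplasmic reticulum with Lman1, had 39.8, 55.7 and 62.3 FPKM in 24 h mice, against 242, 216 and 197 FPKM in saline mice (log2 fold change -2.05, SE 0.20, adjusted p = 4.42e-07). Each of these was lower in every 24 h mouse and passed the test under each scaling tried.

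Genes of folding and quality control in the endoplasmic reticulum fell in large part. Of 29 members tested 20 fell and none rose (median -1.41, and -0.48 when scaled to the total, where 10 were lower and 6 higher). Derl3, a derlin of the degradation channel, had 3.28, 5.66 and 2.62 FPKM in 24 h mice, against 112, 93.3 and 84.2 FPKM in saline mice (log2 fold change -4.37, SE 0.36, adjusted p = 7.32e-08). P4hb, a protein disulfide isomerase, had 250, 294 and 296 FPKM in 24 h mice, against 1600, 1740 and 1240 FPKM in saline mice (log2 fold change -2.43, SE 0.26, adjusted p = 1.18e-06). Dnajc3, a co-chaperone of BiP that restrains the kinase PERK, had 20.9, 25 and 25.7 FPKM in 24 h mice, against 127, 95 and 81.9 FPKM in saline mice (log2 fold change -2.02, SE 0.24, adjusted p = 3.51e-06). All 3 fell in every 24 h mouse. Several abundant chaperones did not pass. Hspa5 (BiP) had 194, 229 and 242 FPKM in 24 h mice, against 573, 260 and 294 FPKM in saline mice (log2 fold change -0.67, adjusted p = 0.0878). Canx (calnexin) had 80.1, 78.3 and 71.7 FPKM in 24 h mice, against 82.5, 83.7 and 62.5 FPKM in saline mice (log2 fold change 0.02, adjusted p = 0.949). Saline replicate 1 was the highest library for Hspa5, Hsp90b1 and Calr.

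The endoplasmic reticulum stress response element, CCAAT followed after 9 bases by CCACG, was found in 9 of 26 promoter windows of this list (34.6%), against 0.119% of all windows, and each such match holds a CCAAT by construction. Of the 9 genes 5 fell (Derl3, Dnajc3, Creld2, Pdia6 and Syvn1) and 4 did not pass (Hspa5, Hsp90b1, Calr and Canx), so the element was found both in genes that fell and in genes that did not pass. The stretches of Derl3, chr10:75893207-75893295 (+ strand), and Dnajc3, chr14:118937792-118937880 (+ strand), are shown with the element in capitals; in Derl3 it reads on the opposite strand.
Derl3: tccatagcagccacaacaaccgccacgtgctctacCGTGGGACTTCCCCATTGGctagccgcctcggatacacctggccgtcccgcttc
Dnajc3: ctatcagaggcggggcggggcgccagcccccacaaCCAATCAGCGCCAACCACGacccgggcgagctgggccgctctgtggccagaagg

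Amino acid metabolism fell with the export genes. Of 14 genes of glycine, creatine and methionine metabolism 13 fell and none rose (median -2.30, and -1.38 when scaled to the total). Gnmt, glycine N-methyltransferase, had 1.97, 4.96 and 3.08 FPKM in 24 h mice, against 97.8, 108 and 93.2 FPKM in saline mice (log2 fold change -4.59, SE 0.39, adjusted p = 1.19e-07). Slc38a5, a glutamine and glycine transporter, had 4.6, 7.28 and 5.92 FPKM in 24 h mice, against 116, 195 and 126 FPKM in saline mice (log2 fold change -4.38, SE 0.40, adjusted p = 3.16e-07). Cth, which makes cysteine from cystathionine, had 3.14, 4.04 and 3.55 FPKM in 24 h mice, against 41.4, 32.6 and 18 FPKM in saline mice (log2 fold change -2.72, SE 0.28, adjusted p = 1.08e-06). No 24 h value reached the lowest saline value in these genes. Ckb, the brain-type creatine kinase, was the member that did not pass, with 5.6, 4.06 and 3.57 FPKM in 24 h mice, against 1.69, 3.76 and 3 FPKM in saline mice (log2 fold change 0.53, adjusted p = 0.148).

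Targets of ATF4, the transcription factor of amino acid stress, moved in both directions. Of 22 tested 12 fell and 3 rose (median -0.85, and -0.06 when scaled to the total, where 6 were lower and 7 higher). Asns, asparagine synthetase, had 56.8, 79.9 and 86.2 FPKM in 24 h mice, against 272, 278 and 265 FPKM in saline mice (log2 fold change -1.88, SE 0.26, adjusted p = 2.13e-05). Atf5, a relative of ATF4, had 23.4, 27.9 and 30.1 FPKM in 24 h mice, against 153, 131 and 76.9 FPKM in saline mice (log2 fold change -2.06, SE 0.23, adjusted p = 2.02e-06). Both were lower in every 24 h mouse. Atf3, an injury-induced repressor of the same family, rose, with 8.42, 8.21 and 8.7 FPKM in 24 h mice, against 0.778, 0.634 and 2.42 FPKM in saline mice (log2 fold change 2.13, SE 0.24, adjusted p = 2.11e-06), as did Gdf15, a stress-induced cytokine, and Sesn2, a sestrin. Atf4 itself had 57.8, 66.6 and 94.1 FPKM in 24 h mice, against 152, 79.1 and 102 FPKM in saline mice (log2 fold change -0.58, adjusted p = 0.0597). Ddit3 (CHOP) had 5.31, 14.6 and 5.21 FPKM in 24 h mice, against 12.1, 4.51 and 5.43 FPKM in saline mice (log2 fold change 0.13, adjusted p = 0.838).

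Ribosomal protein and respiratory chain genes fell in the values as deposited. Of 38 ribosomal protein genes 32 fell and none rose, with a median of -0.87 that was 0.07 when scaled to the total, against 0.69 over all genes, where none was lower. Rps15 had 311, 328 and 370 FPKM in 24 h mice, against 907, 964 and 777 FPKM in saline mice (log2 fold change -1.39, SE 0.21, adjusted p = 6e-05). As a share of summed FPKM the same genes took 3.5% ± 0.327 in 24 h mice and 2.36% ± 0.136 in saline mice (SD, n = 3 each; exact permutation p = 0.1). Of 36 respiratory chain subunits 19 fell and none rose, with a median of -0.53 that was 0.39 when scaled to the total, where 1 was lower and 15 higher. Ndufa1, a subunit of complex I, had 46.1, 50.8 and 45.1 FPKM in 24 h mice, against 148, 204 and 172 FPKM in saline mice (log2 fold change -1.85, SE 0.27, adjusted p = 3.92e-05). Scaled to the protein-coding total, the medians were -0.49 for ribosomal protein genes (24 lower, none higher) and -0.16 for respiratory chain genes (13 lower, 2 higher). By the median ratio they were -0.825 and -0.491. Both medians thus turned only when scaled to the total, and there both lay below the 0.69 over all genes. Without 24 h replicate 1, 25 ribosomal protein and 15 respiratory chain genes fell. Ribosomal protein genes have many pseudogenes that can share reads.

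**Figure D2:**
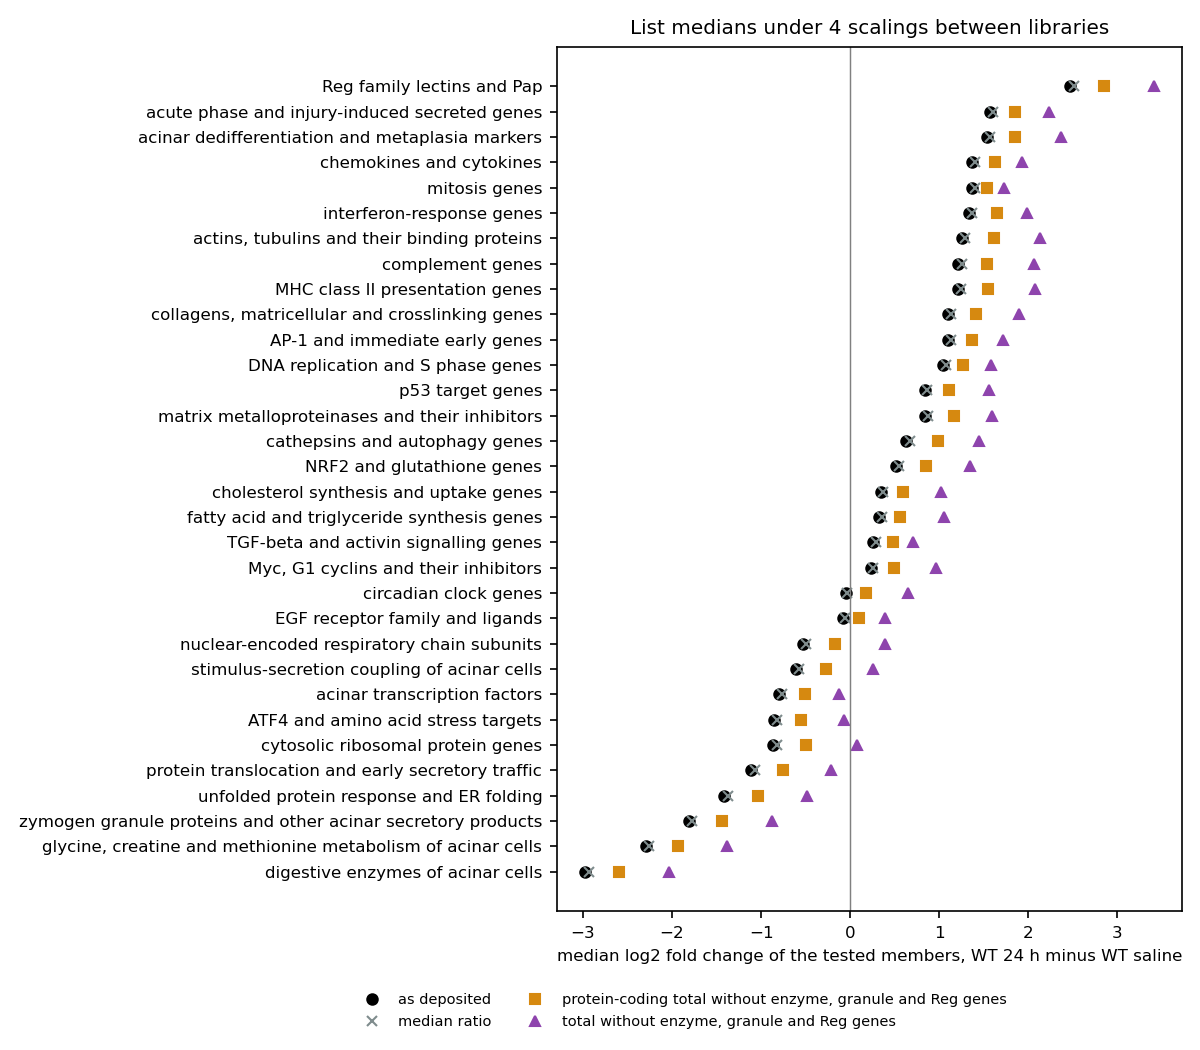
Median log2 fold change, 24 h minus saline, of each gene list under 4 scalings of the libraries. Enzymes lie below 0 under each, while ribosomal protein genes lie at -0.87 as deposited and at 0.07 when scaled to the total without enzymes, granule proteins and Reg genes.

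Markers of dedifferentiation and metaplasia rose. Of 32 tested 22 rose and 3 fell, Krt23 and Cd24a among them, with a median of 1.54. Lgals3, galectin-3, had 87.1, 156 and 180 FPKM in 24 h mice, against 4.28, 4.98 and 11.5 FPKM in saline mice (log2 fold change 4.21, SE 0.38, adjusted p = 2.42e-07). Krt19, a duct keratin, had 68.8, 66.8 and 104 FPKM in 24 h mice, against 23.6, 23.8 and 13.8 FPKM in saline mice (log2 fold change 1.93, SE 0.22, adjusted p = 2.8e-06). Cldn4, a claudin of tight junctions, had 17.1, 21.9 and 40.9 FPKM in 24 h mice, against 2.69, 1.49 and 0.952 FPKM in saline mice (log2 fold change 3.31, adjusted p = 1.86e-05). The groups were apart in each. Cd44, the hyaluronan receptor, had 21.9, 14.1 and 23.7 FPKM in 24 h mice, against 1.02, 1.11 and 2.72 FPKM in saline mice (log2 fold change 3.02, adjusted p = 7.54e-07). Anxa2, a membrane-binding annexin, had 132, 86.4 and 95.1 FPKM in 24 h mice, against 19, 17 and 18.9 FPKM in saline mice (log2 fold change 2.43, SE 0.23, adjusted p = 3.24e-07). S100a11, a calcium-binding protein, had 110, 115 and 145 FPKM in 24 h mice, against 23, 23.3 and 21.7 FPKM in saline mice (log2 fold change 2.38, SE 0.16, adjusted p = 7.76e-09). Lgals3, Cd44, Anxa2 and S100a11 are also made by macrophages, whose markers rose as well, and what part each cell had was not tested. Sox9, the duct and progenitor factor often named with metaplasia, had 4.2, 2.52 and 2.91 FPKM in 24 h mice, against 4.62, 3.86 and 6.81 FPKM in saline mice (log2 fold change -0.53, adjusted p = 0.086). Krt7 had 5.22, 2.76 and 4.29 FPKM in 24 h mice, against 5.12, 1.52 and 3.73 FPKM in saline mice (log2 fold change 0.25, adjusted p = 0.602). Of 10 duct markers 2 were higher (Krt19 and Spp1) and 2 lower, among them Tff2, which acinar granules also hold. These shares are near the 20.5% higher and 18.7% lower of all genes tested. Without saline replicate 1, 1 duct marker was lower, and when scaled to the total 6 were higher and 1 lower. Of the dedifferentiation markers 1 fell, in place of 3, without saline replicate 1 or without saline replicate 2.

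Cytoskeletal genes rose. Of 36 actins, tubulins and their partners 31 rose and none fell (median 1.25), and their share of summed FPKM was 0.773% ± 0.172 in 24 h mice and 0.0977% ± 0.02 in saline mice (SD, n = 3 each; exact permutation p = 0.1). Tubb6, a beta tubulin, had 17.1, 17.6 and 14.4 FPKM in 24 h mice, against 2.28, 2.57 and 2.95 FPKM in saline mice (log2 fold change 2.27, SE 0.18, adjusted p = 7.04e-08). Capg, an actin-capping protein, had 57.3, 47.9 and 55.6 FPKM in 24 h mice, against 5.04, 5.8 and 7.63 FPKM in saline mice (log2 fold change 2.94, SE 0.28, adjusted p = 3.42e-07). Actb, cytoplasmic beta actin, had 469, 409 and 287 FPKM in 24 h mice, against 134, 132 and 181 FPKM in saline mice (log2 fold change 1.36, adjusted p = 0.000249). Each was above all saline mice in all 24 h mice. Actins and tubulins have near-identical copies that may share reads.

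**Figure D3:**
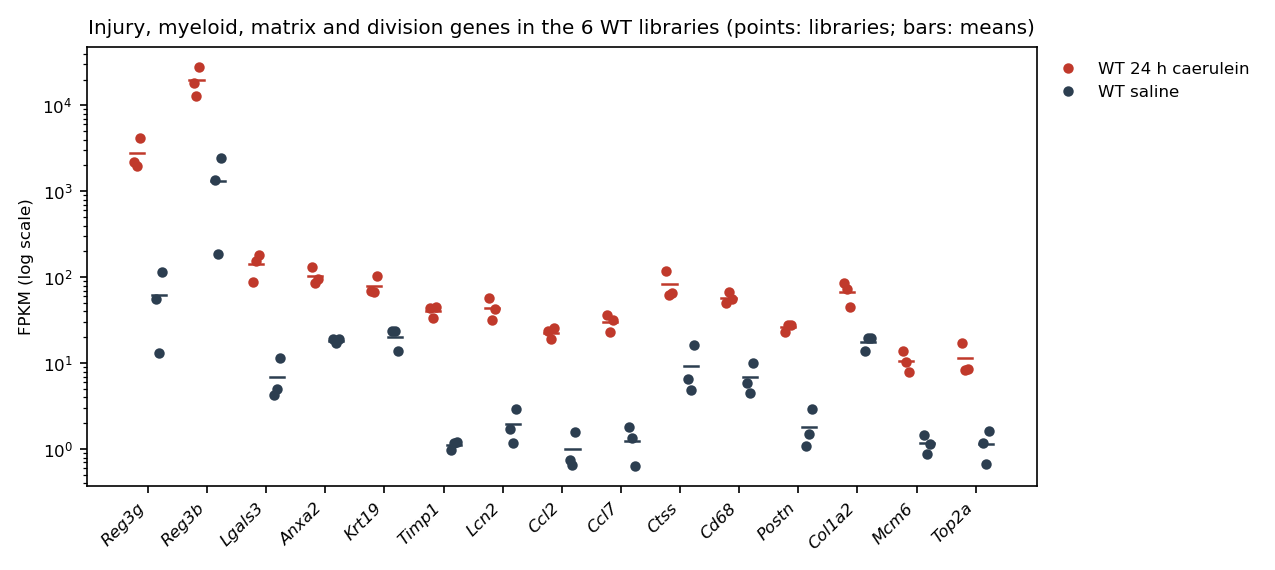
FPKM on a log axis of 15 genes higher at 24 h, with the 3 WT 24 h libraries left and the 3 WT saline libraries right, points for libraries and bars for means. Timp1 lies at 33.3 to 44.7 in 24 h mice and at 0.977 to 1.21 in saline mice.

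Cell division genes rose. Of 30 replication genes tested 27 rose and none fell (median 1.05), and of 28 mitosis genes all 28 rose (median 1.37), against 20.5% of all genes tested. The 30 mitosis genes listed summed to 134, 74.6 and 61.9 FPKM in 24 h mice, against 5.78, 4.4 and 11.4 FPKM in saline mice. Genes so near 0 in saline could hardly fall, and some can have passed the filter only through libraries where they were high. Their share is thus set in part by the filter. With any 1 library left out at least 21 replication and 26 mitosis genes were higher. Mcm6, a subunit of the replicative helicase, had 13.8, 10.3 and 7.9 FPKM in 24 h mice, against 1.48, 0.889 and 1.15 FPKM in saline mice (log2 fold change 2.40, SE 0.21, adjusted p = 1.23e-07). Uhrf1, which keeps DNA methylation through replication, had 4.28, 4.43 and 3.24 FPKM in 24 h mice, against 0.0483, 0.0626 and 0.255 FPKM in saline mice (log2 fold change 2.15, SE 0.18, adjusted p = 1.21e-07). Pcna, the sliding clamp, had 29.1, 23.9 and 26.2 FPKM in 24 h mice, against 11.3, 7.55 and 11.3 FPKM in saline mice (log2 fold change 1.33, SE 0.14, adjusted p = 1.4e-06). All 24 h mice were higher than all saline mice. Top2a, the topoisomerase that untangles chromosomes, had 17.2, 8.41 and 8.49 FPKM in 24 h mice, against 1.19, 0.665 and 1.63 FPKM in saline mice (log2 fold change 2.47, SE 0.27, adjusted p = 1.47e-06). Cdk1, the mitotic kinase, had 18.1, 9.16 and 7.45 FPKM in 24 h mice, against 0.565, 0 and 0.182 FPKM in saline mice (adjusted p = 9.4e-06). Birc5 (survivin) had 6.76, 3.68 and 3.8 FPKM in 24 h mice, against 0, 0.341 and 0.652 FPKM in saline mice (log2 fold change 2.10, SE 0.25, adjusted p = 4.14e-06). Replicate 1 of the 24 h mice was the highest in these 3. Which cells divided cannot be read from whole tissue: macrophage, fibroblast and dedifferentiation markers rose in the same libraries, and their part in the division genes was not tested.

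Many promoters of the mitosis genes hold 2 short motifs, which other lists hold as well. TTTGAA, the cell cycle homology region bound by complexes that time mitotic genes, was found in 21 of 26 windows of the list (80.8%), against 17.9% of all windows, and CCAAT in 23 of 26 (88.5%), against 37.4%. TTTGAA was in 2 of 29 windows of the replication list and in 5 of 7 of the Reg family (71.4%), and CCAAT was in 23 of 26 windows of the endoplasmic reticulum folding list (88.5%), as many as here. Of the 20 mitosis genes with TTTGAA 19 were tested and rose. The stretches of Cdk1, chr10:69352913-69353155 (- strand), and Top2a, chr11:99024190-99024439 (- strand), are shown with both motifs in capitals on either strand, so that CCAAT may read ATTGG and TTTGAA may read TTCAAA.
Cdk1: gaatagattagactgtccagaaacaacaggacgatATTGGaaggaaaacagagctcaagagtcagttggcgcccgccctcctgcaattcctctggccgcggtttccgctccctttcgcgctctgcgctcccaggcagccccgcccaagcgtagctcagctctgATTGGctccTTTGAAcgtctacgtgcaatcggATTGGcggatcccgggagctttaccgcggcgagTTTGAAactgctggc
Top2a: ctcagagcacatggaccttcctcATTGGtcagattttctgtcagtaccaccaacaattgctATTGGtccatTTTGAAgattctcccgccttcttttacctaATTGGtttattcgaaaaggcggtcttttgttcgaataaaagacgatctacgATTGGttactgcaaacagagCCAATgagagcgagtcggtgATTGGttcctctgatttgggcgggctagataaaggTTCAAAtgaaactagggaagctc

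Growth and G1 genes were mixed. Of 19 tested 6 rose and 1 fell, and 12 were higher when scaled to the total. Cdk4, the G1 kinase, had 74.5, 74.2 and 82.5 FPKM in 24 h mice, against 42.5, 51.9 and 36.8 FPKM in saline mice (log2 fold change 0.82, SE 0.14, adjusted p = 0.000209). Cdkn1a (p21), an inhibitor of such kinases and a p53 target, had 46, 40.4 and 96.1 FPKM in 24 h mice, against 16.7, 5.38 and 25.4 FPKM in saline mice (log2 fold change 1.995, SE 0.36, adjusted p = 0.000247). Odc1, the first enzyme of polyamine synthesis, fell, with 21.5, 25.3 and 31.6 FPKM in 24 h mice, against 78.2, 87.7 and 80 FPKM in saline mice (log2 fold change -1.63, SE 0.20, adjusted p = 5.85e-06). The groups did not overlap for these 3 genes, while other growth genes did not pass. Ccnd1, cyclin D1, had 9.93, 9.11 and 7.58 FPKM in 24 h mice, against 9.45, 6.84 and 5.3 FPKM in saline mice (log2 fold change 0.29, adjusted p = 0.346). Myc had 11.4, 11.5 and 8.19 FPKM in 24 h mice, against 13.1, 13.9 and 28.4 FPKM in saline mice (log2 fold change -0.70, adjusted p = 0.104). Saline replicate 3 was the highest library for Myc.

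Of 18 p53 target genes 14 rose and 1 (Plk2) fell, with a median of 0.84, and 10 rose without saline replicate 2. Phlda3, which dampens AKT signalling, had 18.3, 23.9 and 30.9 FPKM in 24 h mice, against 1.68, 2.32 and 2.08 FPKM in saline mice (log2 fold change 3.04, SE 0.23, adjusted p = 3.86e-08). Bax, which opens mitochondria in apoptosis, had 20.9, 29.2 and 33 FPKM in 24 h mice, against 6.95, 11.8 and 8.41 FPKM in saline mice (log2 fold change 1.52, SE 0.17, adjusted p = 2.04e-06). Neither overlapped between groups. Mdm2, the ubiquitin ligase of p53, had 10.7, 8.54 and 13 FPKM in 24 h mice, against 5.97, 4.54 and 6.75 FPKM in saline mice (log2 fold change 0.80, adjusted p = 0.0138).

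AP-1 and immediate early genes differed between animals. Of 23 tested 9 rose and none fell (median 1.10), and leaving out 1 library at a time gave 6 to 16 higher, with 16 without 24 h replicate 2, and scaling to the total gave 17. Dusp6, a phosphatase of ERK, had 7.63, 4.95 and 5.48 FPKM in 24 h mice, against 1.31, 1.85 and 2.06 FPKM in saline mice (log2 fold change 1.35, SE 0.19, adjusted p = 2.05e-05). Ier3, an early response gene, had 13.2, 3.66 and 29 FPKM in 24 h mice, against 1.22, 1.13 and 1.94 FPKM in saline mice (log2 fold change 2.39, SE 0.41, adjusted p = 0.000179). Fos had 33, 5.81 and 52.6 FPKM in 24 h mice, against 1.3, 4.3 and 15.6 FPKM in saline mice (log2 fold change 1.98, adjusted p = 0.0797). For Ier3 and Fos replicate 2 of the 24 h mice was the lowest of its group, and for Fos it lay among the saline values.

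Macrophage markers had the highest median of the 15 marker lists, 2.40, with 16 of 20 higher and none lower. Their sum was 1180, 807 and 668 FPKM in 24 h mice, against 79, 105 and 204 FPKM in saline mice. Every 24 h sum was thus above every saline sum. Cd68, a lysosomal protein of macrophages, had 49.9, 67.4 and 56.3 FPKM in 24 h mice, against 5.95, 4.54 and 10.1 FPKM in saline mice (log2 fold change 2.96, SE 0.33, adjusted p = 2.11e-06). Tyrobp, an adaptor of myeloid receptors, had 93.1, 63.2 and 52.8 FPKM in 24 h mice, against 7.24, 6.63 and 13.2 FPKM in saline mice (log2 fold change 2.84, SE 0.37, adjusted p = 9.05e-06). Msr1, a scavenger receptor, had 32.8, 15 and 14.3 FPKM in 24 h mice, against 0.899, 1.06 and 1.3 FPKM in saline mice (log2 fold change 3.28, adjusted p = 5.35e-05). Every 24 h mouse was above every saline mouse. Arg1, a gene of alternatively activated macrophages, had 35.1, 5.86 and 11.7 FPKM in 24 h mice, against 1.33, 2.04 and 4.05 FPKM in saline mice (log2 fold change 2.15, adjusted p = 0.0652). Chil3, a chitinase-like protein of such cells, had 70.2, 5.98 and 33 FPKM in 24 h mice, against 0.966, 1.25 and 0.572 FPKM in saline mice (log2 fold change 3.75, SE 0.80, adjusted p = 0.00131).

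Other leukocytes were less even. Neutrophil markers summed to 172, 24.3 and 11.4 FPKM in 24 h mice, against 3.17, 4.55 and 16.2 FPKM in saline mice, with Ly6g at 0 in all 6. Of 9 tested 2 were higher (22.2%, beside 20.5% of all genes tested), 5 without 24 h replicate 3 and 1 without 24 h replicate 1. S100a9, a neutrophil granule protein, had 75, 7.67 and 4.11 FPKM in 24 h mice, against 0.995, 0 and 3.71 FPKM in saline mice (log2 fold change 2.83, adjusted p = 0.0594). Csf3r, the G-CSF receptor, had 5.81, 2.47 and 0.774 FPKM in 24 h mice, against 0.215, 0.403 and 0.688 FPKM in saline mice (log2 fold change 1.29, SE 0.46, adjusted p = 0.031); it lost its call without 24 h replicate 1 or 2 or saline replicate 1 or 2. Lymphocyte markers spread in the same way. B cell markers summed to 64.1, 31.2 and 2.48 FPKM in 24 h mice, against 1.62, 3.42 and 23.3 FPKM in saline mice, and T and NK cell markers to 37.3, 9.3 and 3.71 FPKM in 24 h mice, against 2.26, 6.24 and 10.9 FPKM in saline mice. None of the 8 B cell and 7 T and NK cell markers tested passed the limma test with all libraries, and without 24 h replicate 3 4 B cell markers did. Replicate 1 of the 24 h mice was the highest library in each of these sums, and saline replicate 3 the highest of its group. Whether lymphoid tissue was taken along with the pancreas was not tested.

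Chemokines rose. Of 29 chemokine and cytokine genes 18 rose and 1 (Cxcl14) fell (median 1.37), and 10 rose without 24 h replicate 1. Ccl9, a myeloid chemokine of mice, had 326, 307 and 318 FPKM in 24 h mice, against 4.76, 35.7 and 11 FPKM in saline mice (log2 fold change 4.54, SE 0.89, adjusted p = 0.00064). Ccl7, which draws monocytes, had 36.6, 22.9 and 32.1 FPKM in 24 h mice, against 1.8, 1.34 and 0.639 FPKM in saline mice (log2 fold change 3.81, SE 0.30, adjusted p = 4.76e-08). Ccl2, the main monocyte attractant, had 23.6, 19.1 and 25.5 FPKM in 24 h mice, against 0.757, 0.655 and 1.57 FPKM in saline mice (log2 fold change 3.59, SE 0.35, adjusted p = 5.2e-07). The 24 h mice lay close together and well above saline. Tgfb1 had 11.3, 14.1 and 9.56 FPKM in 24 h mice, against 2.98, 2.62 and 3.24 FPKM in saline mice (log2 fold change 1.67, SE 0.25, adjusted p = 3.72e-05). It did not overlap between groups, unlike the next genes. Il6 had 1.35, 0 and 1.2 FPKM in 24 h mice, against 0, 0.226 and 0 FPKM in saline mice (log2 fold change 0.69, adjusted p = 0.0595). Tnf had 1.05, 0.062 and 0.749 FPKM in 24 h mice, against 0.245, 0 and 0.135 FPKM in saline mice (log2 fold change 0.48, adjusted p = 0.0865). Cxcl13, the B cell attractant, had 265, 87.2 and 1.75 FPKM in 24 h mice, against 0.159, 14.2 and 40.3 FPKM in saline mice (log2 fold change 2.16, adjusted p = 0.357). The groups overlapped in these 3.

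Interferon-response genes rested in part on 1 animal. Of 26 tested 20 rose and none fell (median 1.33), with 9 higher without 24 h replicate 1 and 12 without saline replicate 1. Their sum was 422, 126 and 152 FPKM in 24 h mice, against 52.2, 62.9 and 85.2 FPKM in saline mice. Replicate 1 was thus far above the other 24 h mice. Irf9, a subunit of the interferon-stimulated factor, had 11, 6.86 and 7.6 FPKM in 24 h mice, against 2.6, 2.71 and 3.65 FPKM in saline mice (log2 fold change 1.24, SE 0.24, adjusted p = 0.000446). Psmb8, an immunoproteasome subunit, had 35.7, 10.9 and 11.7 FPKM in 24 h mice, against 1.81, 2.74 and 5.06 FPKM in saline mice (log2 fold change 2.15, SE 0.47, adjusted p = 0.00146). Replicates 2 and 3 of the 24 h mice were above saline in both, by less than replicate 1.

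Of 11 MHC class II genes 3 rose (Ctss, H2-DMa and H2-DMb1) and none fell, which is 27.3% higher beside 20.5% of all genes tested. Leaving out 1 library gave 2 to 8 higher, with 8 without 24 h replicate 3 or saline replicate 3, and scaling to the total gave 8. H2-DMb1, a peptide loader, lost its call without 24 h replicate 1. Cd74, the invariant chain, had 310, 155 and 56.7 FPKM in 24 h mice, against 35.3, 53.2 and 114 FPKM in saline mice (log2 fold change 1.21, adjusted p = 0.107). Of 17 complement genes 8 rose and 1 fell, with 5 higher without 24 h replicate 1 and 13 when scaled to the total. C3ar1, the receptor for the C3a fragment, had 7.04, 9.42 and 6.9 FPKM in 24 h mice, against 0.676, 0.925 and 1.16 FPKM in saline mice (log2 fold change 2.19, SE 0.25, adjusted p = 2.66e-06). Cfb, factor B, had 105, 48.9 and 21.2 FPKM in 24 h mice, against 7.48, 6.56 and 10.4 FPKM in saline mice (log2 fold change 2.44, SE 0.52, adjusted p = 0.00112). Cd59a, which shields cells from the attack complex, fell, with 3.72, 2.24 and 2.43 FPKM in 24 h mice, against 8.09, 5.64 and 6.5 FPKM in saline mice (log2 fold change -1.04, SE 0.23, adjusted p = 0.00167). In Cfb the 24 h mice spread widely and did not meet the saline mice.

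Acute phase and injury-induced secreted genes rose in 11 of 15 tested, with 1 (Itih4) lower and a median of 1.57, and 8 rose without saline replicate 1. Lcn2, lipocalin-2, which binds bacterial siderophores, had 56.7, 32 and 42.8 FPKM in 24 h mice, against 1.73, 1.17 and 2.95 FPKM in saline mice (log2 fold change 3.93, SE 0.45, adjusted p = 2.75e-06). Serpina3n, a serine protease inhibitor, had 55.6, 23 and 19.1 FPKM in 24 h mice, against 2.07, 3.76 and 2.46 FPKM in saline mice (log2 fold change 3.03, SE 0.47, adjusted p = 6.34e-05). Serpinb6a, an intracellular inhibitor of proteases, had 116, 105 and 184 FPKM in 24 h mice, against 24.5, 32.5 and 31.5 FPKM in saline mice (log2 fold change 2.12, SE 0.18, adjusted p = 1.23e-07). No values overlapped.

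Matrix genes rose. Of 35 collagen, matricellular and crosslinking genes 25 rose and none fell (median 1.10), and without 1 library at least 20 did. Postn, periostin, had 23.3, 28.1 and 28 FPKM in 24 h mice, against 1.08, 1.51 and 2.91 FPKM in saline mice (log2 fold change 3.32, SE 0.36, adjusted p = 1.74e-06). Col1a2, a chain of type I collagen, had 85.2, 72.6 and 45.1 FPKM in 24 h mice, against 13.7, 19.8 and 19.4 FPKM in saline mice (log2 fold change 1.85, SE 0.31, adjusted p = 0.000118). Lox, which crosslinks collagen, had 8, 7.22 and 7.2 FPKM in 24 h mice, against 1.37, 1.19 and 1.39 FPKM in saline mice (log2 fold change 1.87, SE 0.20, adjusted p = 1.4e-06). Replicates of 24 h mice agreed closely for Lox and Postn. Fibroblast and stellate cell markers summed to 575, 519 and 310 FPKM in 24 h mice, against 177, 214 and 200 FPKM in saline mice, with 10 of 14 higher, while Dcn (decorin), which resting fibroblasts also make, had 105, 103 and 45 FPKM in 24 h mice, against 86.4, 98.8 and 78 FPKM in saline mice (log2 fold change -0.15, adjusted p = 0.765). Mesothelial markers rose in 4 of 6, in none without 24 h replicate 1 or saline replicate 3 and in 1 without 24 h replicate 2 or saline replicate 1. Among them Msln lost its call without 24 h replicate 1 or saline replicate 3, and Gpm6a without 24 h replicate 1 or 2 or saline replicate 1 or 3.

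Matrix proteases and their inhibitors rose in 12 of 19, and in 10 without 24 h replicate 1, with none lower. Timp1, an inhibitor of metalloproteinases, had 44.4, 33.3 and 44.7 FPKM in 24 h mice, against 0.977, 1.17 and 1.21 FPKM in saline mice (log2 fold change 4.29, SE 0.40, adjusted p = 3.24e-07). Mmp3, stromelysin, had 7.37, 3.47 and 13.2 FPKM in 24 h mice, against 1.16, 0.25 and 0.959 FPKM in saline mice (log2 fold change 2.22, SE 0.36, adjusted p = 0.000103). Mmp7, matrilysin, a product of metaplastic epithelium, had 7.22, 1.62 and 11 FPKM in 24 h mice, against 0.178, 0 and 0 FPKM in saline mice (log2 fold change 2.59, adjusted p = 0.000246). Its saline values were at or near 0. Mmp2 had 6.77, 4.99 and 3.96 FPKM in 24 h mice, against 5.76, 4.65 and 7.15 FPKM in saline mice (log2 fold change -0.14, adjusted p = 0.652). Timp3 had 11.5, 9.89 and 5.58 FPKM in 24 h mice, against 9.68, 9.24 and 10.2 FPKM in saline mice (log2 fold change -0.15, adjusted p = 0.616).

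Genes of TGF-beta and activin signalling moved both ways. Of 22 tested 8 rose (36.4%) and 5 fell (22.7%), beside 20.5% higher and 18.7% lower of all genes tested. In this list 1 fell without 24 h replicate 3, 2 without saline replicate 1, and 3 without 24 h replicate 1 or saline replicate 2. None fell under either total, where 12 (whole) and 10 (protein-coding) were higher. Tgfbi, a matrix protein induced by TGF-beta, had 30.2, 26.4 and 18 FPKM in 24 h mice, against 3.05, 3.96 and 5.26 FPKM in saline mice (log2 fold change 2.34, SE 0.43, adjusted p = 0.000281). Fstl1, a secreted follistatin relative, had 45.4, 35 and 28 FPKM in 24 h mice, against 6.32, 7.07 and 14.6 FPKM in saline mice (log2 fold change 1.91, SE 0.35, adjusted p = 0.000271). Both rose in every 24 h mouse. Smad7, an inhibitory SMAD, had 1.04, 1.04 and 0.81 FPKM in 24 h mice, against 2.22, 1.55 and 2.13 FPKM in saline mice (log2 fold change -0.59, adjusted p = 0.0133).

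In the EGF family Egf alone passed the test among 10 genes, with 2.04, 2.9 and 2.37 FPKM in 24 h mice, against 20.3, 34.2 and 29.7 FPKM in saline mice (log2 fold change -3.06, SE 0.27, adjusted p = 1.72e-07). It is a growth factor that salivary glands of mice make in quantity. The list median was -0.08, and was 0.10 and 0.39 under the protein-coding and whole totals, with 1 and 5 higher. As deposited 10% of the list was lower, beside 18.7% of all genes tested. Egfr had 3.69, 7.01 and 9.6 FPKM in 24 h mice, against 4.18, 4.65 and 6.33 FPKM in saline mice (log2 fold change 0.30, adjusted p = 0.433). Hbegf had 0.411, 0.445 and 0.928 FPKM in 24 h mice, against 0.781, 0.737 and 0.793 FPKM in saline mice (log2 fold change -0.17, adjusted p = 0.69).

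Lysosomal genes rose in 15 of 26 tested, with 2 (Ulk1 and Gabarapl1) lower, 4 without 24 h replicate 3, and a median of 0.63. When scaled to the total 23 were higher and none lower. Lgmn, legumain, an asparaginyl protease, had 58.2, 63.6 and 61.7 FPKM in 24 h mice, against 5.29, 6.89 and 8.16 FPKM in saline mice (log2 fold change 3.01, SE 0.31, adjusted p = 9.1e-07). Ctsl, cathepsin L, had 529, 794 and 1340 FPKM in 24 h mice, against 194, 191 and 215 FPKM in saline mice (log2 fold change 2.04, SE 0.25, adjusted p = 4.69e-06). Ctsb, cathepsin B, known to activate trypsinogen, had 131, 151 and 147 FPKM in 24 h mice, against 39.2, 51.5 and 47.5 FPKM in saline mice (log2 fold change 1.62, SE 0.21, adjusted p = 1.04e-05). None overlapped. Sqstm1 (p62), an autophagy receptor, had 123, 256 and 247 FPKM in 24 h mice, against 131, 166 and 159 FPKM in saline mice (log2 fold change 0.39, adjusted p = 0.261). Cathepsins and legumain are also products of macrophages.

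Genes of oxidative defence moved both ways, with 8 of 17 higher and 5 lower, and 3 lower without 24 h replicate 1 or 2 or saline replicate 1. Scaled to the total 11 were higher and 2 lower. Prdx1, a peroxiredoxin, had 122, 112 and 167 FPKM in 24 h mice, against 59.4, 41.3 and 49.1 FPKM in saline mice (log2 fold change 1.40, SE 0.17, adjusted p = 5.9e-06). Hmox1, heme oxygenase, which macrophages also make, had 31.4, 24.5 and 19.8 FPKM in 24 h mice, against 3.8, 2.5 and 8.94 FPKM in saline mice (log2 fold change 2.23, adjusted p = 0.000243). The members that fell included glutathione transferases and metallothioneins. Gstm2, a glutathione transferase, had 16.4, 20.5 and 12.7 FPKM in 24 h mice, against 120, 126 and 141 FPKM in saline mice (log2 fold change -2.91, SE 0.26, adjusted p = 1.72e-07). Mt1, a metallothionein, had 716, 600 and 1040 FPKM in 24 h mice, against 1730, 1370 and 1090 FPKM in saline mice (log2 fold change -0.84, adjusted p = 0.0258).

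Of 22 cholesterol genes 8 rose and none fell (median 0.34), and 4 rose without 24 h replicate 2 or saline replicate 3. Scaled to the total 20 were higher (median 1.02), and scaled to the protein-coding total 14 (median 0.59). Msmo1, a sterol oxidase, had 11.2, 16 and 10.8 FPKM in 24 h mice, against 5.23, 3.38 and 3.73 FPKM in saline mice (log2 fold change 1.42, SE 0.25, adjusted p = 0.000231). Of 18 genes of fatty acid and triglyceride synthesis 2 rose (11.1%) and 3 fell (16.7%), beside 20.5% and 18.7% of all genes tested. Without 24 h replicate 3, 4 rose, and without saline replicate 3 none did. Scaled to the total, 11 of them were higher and none lower, and scaled to the protein-coding total 5 were higher and none lower. Me1, malic enzyme, had 4.53, 3.08 and 3.12 FPKM in 24 h mice, against 1.01, 1.57 and 0.563 FPKM in saline mice (log2 fold change 1.18, SE 0.35, adjusted p = 0.0114); it lost its call without 24 h replicate 1 or saline replicate 3. Acacb, an acetyl-CoA carboxylase, lost its call without 24 h replicate 1. Srebf1, the sterol regulatory factor, had 9.27, 11.5 and 8.59 FPKM in 24 h mice, against 19.6, 20.9 and 14.5 FPKM in saline mice (log2 fold change -0.84, SE 0.21, adjusted p = 0.00425); its fold change was 0.04 when scaled to the total.

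Of 15 clock genes 4 fell and none rose (2 without 24 h replicate 1), with a median of -0.05 that was 0.18 and 0.65 under the protein-coding and whole totals, where 5 and 7 were higher and 1 and none lower. The 26.7% lower as deposited stands beside 18.7% of all genes tested. Arntl (Bmal1) had 1.34, 1.81 and 1.93 FPKM in 24 h mice, against 3.85, 4.22 and 5.59 FPKM in saline mice (log2 fold change -1.04, SE 0.15, adjusted p = 2.42e-05). Nr1d1, a nuclear receptor of the clock, lost its call without 24 h replicate 1 or 3 or saline replicate 1 or 2. The hour of killing is not given in the sources used here, so time of day was not tested.

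Among other cells of the tissue, islet markers fell in 10 of 12, with a median of -1.63, and in 7 without 24 h replicate 1. Ins2, insulin, had 322, 521 and 879 FPKM in 24 h mice, against 2580, 2280 and 3990 FPKM in saline mice (log2 fold change -2.44, adjusted p = 0.00403). Sst, somatostatin, had 6.76, 5.54 and 9.1 FPKM in 24 h mice, against 37.3, 25.2 and 78.6 FPKM in saline mice (log2 fold change -2.43, SE 0.49, adjusted p = 0.000703). Saline replicate 3 was the highest in both. Adipocyte markers summed to 580, 452 and 144 FPKM in 24 h mice, against 45.5, 147 and 99.1 FPKM in saline mice, with 4 of 12 higher, 2 without 24 h replicate 1 or saline replicate 1 and 8 without 24 h replicate 3. Endothelial markers summed to 87.6, 78.7 and 63.8 FPKM in 24 h mice, against 92.1, 108 and 84.5 FPKM in saline mice. Of 13 tested 2 (Kdr and Emcn) fell as deposited (15.4%, beside 18.7% of all genes tested), none when scaled to either total. Scaled to the total 2 islet markers were lower and 9 adipocyte markers higher, and scaled to the protein-coding total 8 and 6. With the adipocyte and B cell marker levels as covariates 3 islet markers were lower, and 7 fibroblast and 14 macrophage markers were higher. The same covariates left 10 interferon-response genes higher in place of 20, 11 chemokine and cytokine genes in place of 18, 5 TGF-beta genes in place of 8, 2 adipocyte markers in place of 4, 1 neutrophil marker in place of 2 and no mesothelial marker in place of 4, and no gene of fatty acid synthesis in place of 2. They left 20 ribosomal protein genes lower in place of 32, 12 respiratory chain genes in place of 19, and 3 genes each of oxidative defence and of the TGF-beta list in place of 5. The covariates are means over the adipocyte and B cell lists themselves, so adipocyte markers were set against their own mean and their count is no test. The adipocyte sums above also leaned toward 24 h mice, so the covariates can take up part of the difference between the groups.

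**Figure D4:**
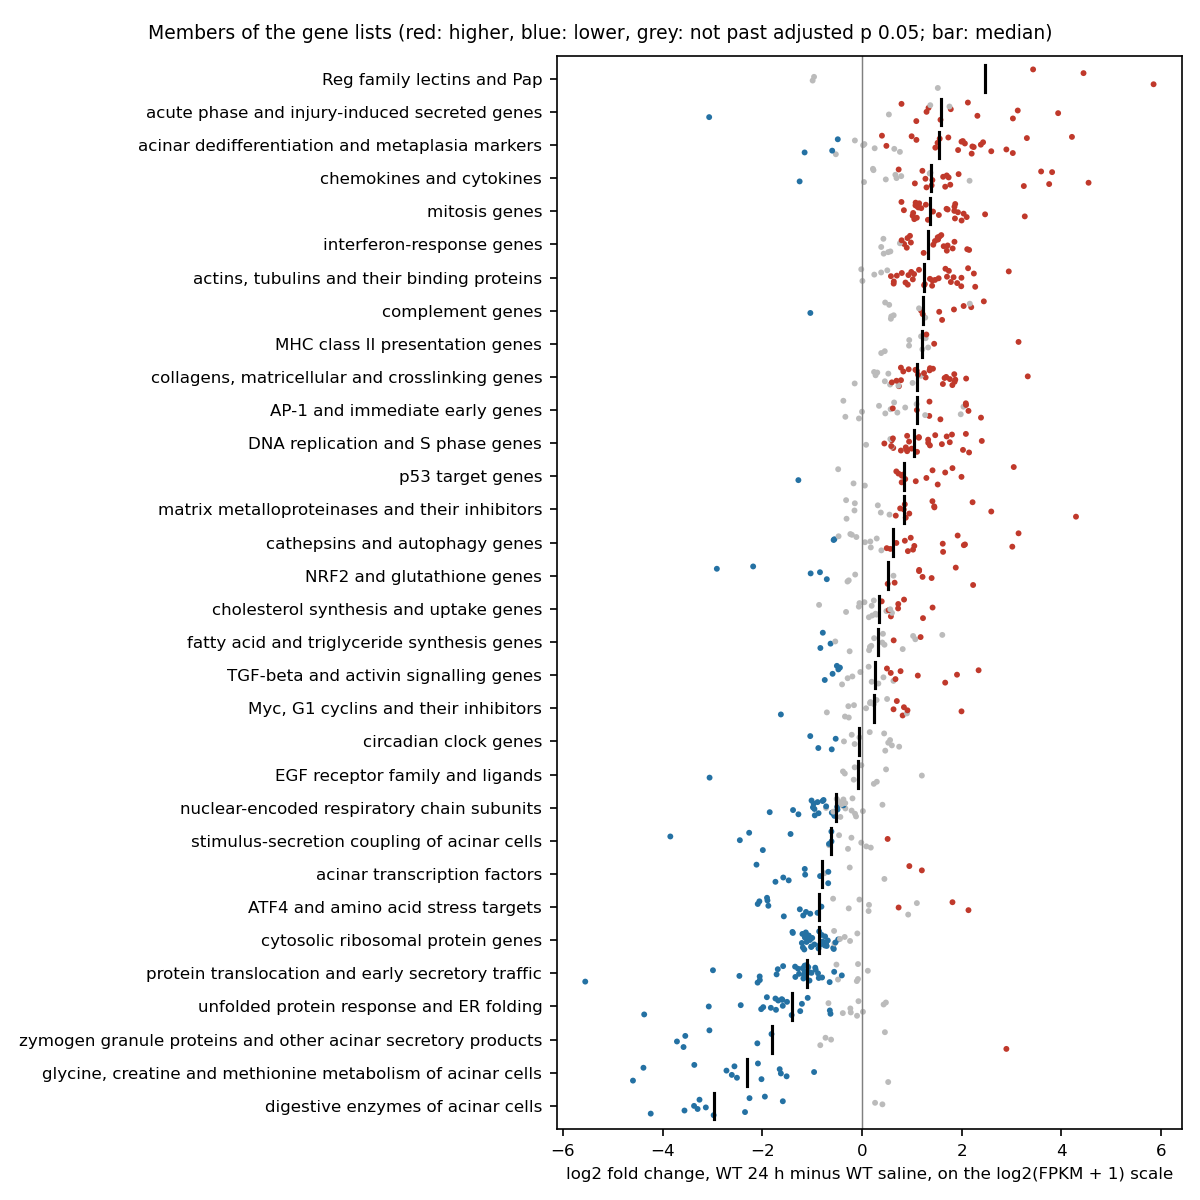
Log2 fold change, 24 h minus saline, of every tested member of 32 gene lists, with red for higher, blue for lower and grey for not past the adjusted threshold, and a bar at each list's median. Digestive enzymes have the lowest median, at -2.98, and all 28 mitosis genes lie above 0.

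Some of the largest changes lay outside these lists. Hamp2, a hepcidin relative, had 7.62, 11.2 and 5.88 FPKM in 24 h mice, against 303, 412 and 360 FPKM in saline mice (log2 fold change -5.31, SE 0.51, adjusted p = 5.2e-07). Ggt1, gamma-glutamyltransferase, had 23.5, 30 and 17.7 FPKM in 24 h mice, against 393, 437 and 372 FPKM in saline mice (log2 fold change -4.05, SE 0.39, adjusted p = 4.78e-07). Gal, galanin, a neuropeptide, had 21, 11.9 and 12.1 FPKM in 24 h mice, against 61.1, 214 and 454 FPKM in saline mice (log2 fold change -3.56, SE 0.73, adjusted p = 0.000999). Saline mice spread widely for Gal and were all above the 24 h mice. Tspan1, a tetraspanin of epithelia, had 55.1, 43.3 and 90.7 FPKM in 24 h mice, against 4.41, 2.76 and 3.82 FPKM in saline mice (log2 fold change 3.73, SE 0.26, adjusted p = 1.05e-08). S100a4, a calcium-binding protein of fibroblasts and macrophages, had 103, 112 and 85.6 FPKM in 24 h mice, against 5.71, 9.18 and 7.12 FPKM in saline mice (log2 fold change 3.61, SE 0.28, adjusted p = 4.86e-08).

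The levels at 24 h can be set beside those at 8 and 48 h, which were prepared with another guide, so that guide and time cannot be told apart and no test is given. Clps was at 10500, 17600 and 19600 FPKM at 8 h, at 4370, 6290 and 5870 FPKM at 24 h and at 20500, 8120 and 12600 FPKM at 48 h. Top2a was at 0.42, 0.393 and 0.161 FPKM at 8 h, at 17.2, 8.41 and 8.49 FPKM at 24 h and at 3.2, 6.01 and 4.81 FPKM at 48 h. Atf3 was at 267, 275 and 256 FPKM at 8 h, at 8.42, 8.21 and 8.7 FPKM at 24 h and at 5.71, 7.52 and 5.25 FPKM at 48 h. Values of Clps were lowest and those of Top2a highest at 24 h, while those of Atf3 were highest at 8 h. Nr5a2 was at 3.2, 2.25 and 2.78 FPKM at 8 h, at 4.64, 5.48 and 6.44 FPKM at 24 h and at 6.06, 4.08 and 6.2 FPKM at 48 h.

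**Figure D5:**
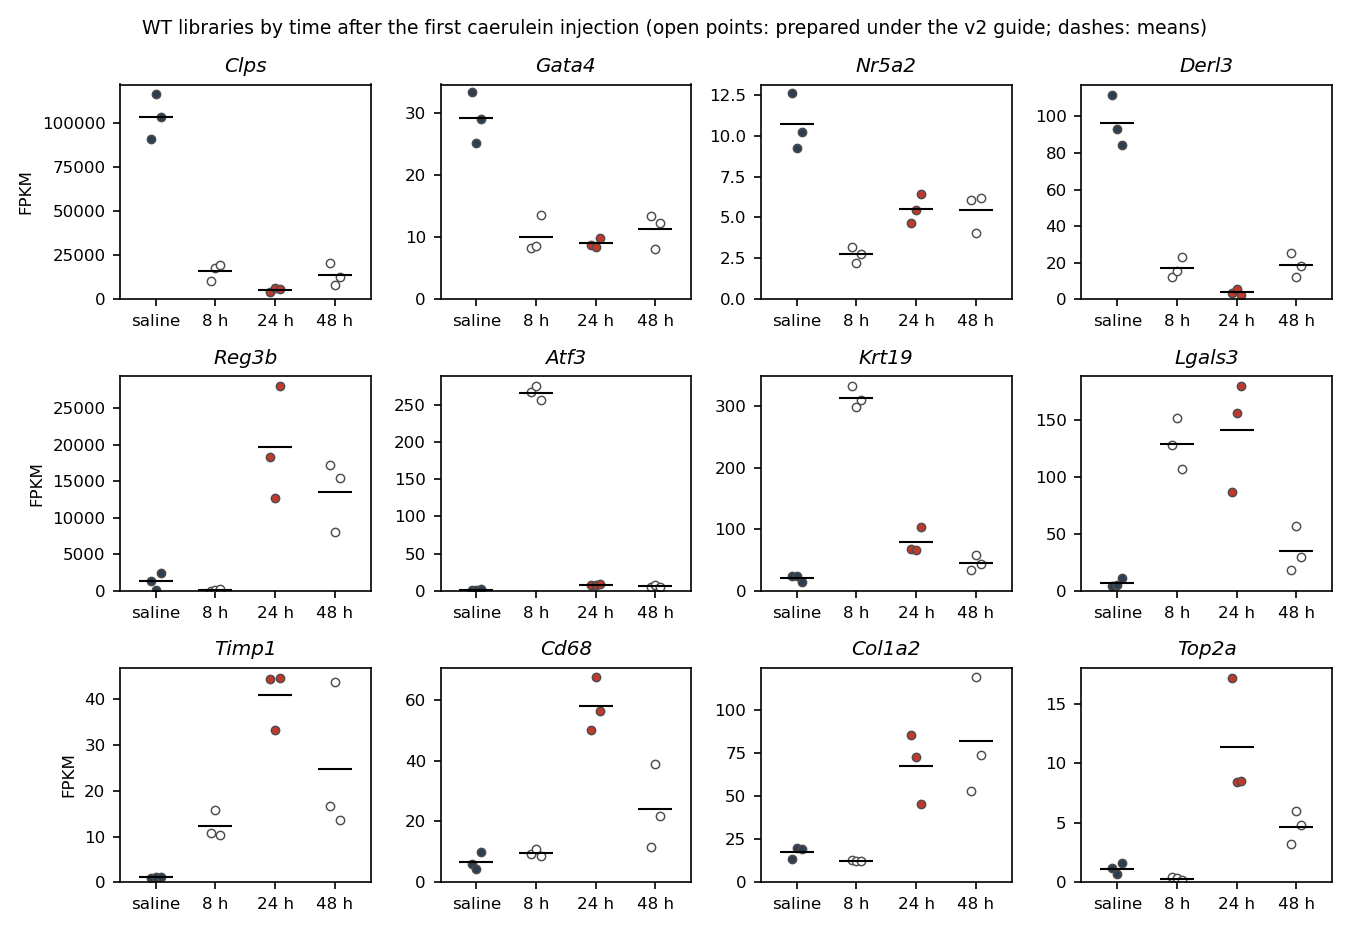
FPKM on a linear axis of 12 genes in WT mice in saline and at 8, 24 and 48 h, with a point for each library and open points for libraries of the v2 guide. Reg3b lies at 12700 to 28000 FPKM at 24 h, and Top2a is highest there.

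The same contrast in Nr5a2 heterozygotes differed from wild type, as a test of the difference, for 295 of 12846 genes (2.3%), of which 158 had the higher fold change in wild type. With the adipocyte and B cell marker levels as covariates none did. Leaving out 1 of the 12 libraries at a time gave 129 (without WT 24 h replicate 1) to 619 (without WT 24 h replicate 3), so the count rests on single libraries. Clps, Reg3b and Nr5a2 were not among them.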

How the data were processed

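FPKM were deposited by the authors, 1 line for each of 36806 Ensembl genes, of which 12784 were at 0 in all 24 libraries. The submitters' processing notes name build mm9 and the tools Cuffnorm, Cufflinks 2.0.2, Bowtie and CASAVA 1.8, without role or order. The table's header names no unit, and the unit follows from Cuffnorm and the values. How libraries were scaled and which annotation was used is not given in the sources used here. Without read counts depth is unknown, and values carry no interval for counting. Per the labels' protocols, poly(A) RNA was prepared with TruSeq guides and sequenced on a Genome Analyzer IIx, and the 5 libraries listed under the earlier guide had 10 PCR cycles. Each library is a different animal, and replicates were numbered in accession order.

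Genes reaching 1 FPKM in 3 or more of 24 libraries were kept. A group at 0 in all 3 libraries was taken as missing where all libraries of some other group reached 100 FPKM, and in neighbouring genes with the same pattern (26 genes in all, 21 with a group of this comparison). This rule, like the protein-coding scaling, was set after the values were seen. Limma 3.58.1 (R 4.3.3; trend and robust moderation) was fitted to log2(FPKM + 1) with 1 mean for each of 8 groups and 16 residual degrees of freedom, after tests on simulated data. P-values were adjusted over all genes tested. Shares of summed FPKM were compared by an exact permutation test. Of the called genes 71 had a group at 0 in every library, and no fold change is printed for these.

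The comparison, its gene lists (32, and 15 of cell markers, 894 of 897 genes found) and the members shown were chosen with earlier results of these data known, so they are no independent support for any direction. Named genes were Nr5a2, the 14 largest changes in each direction with a higher group mean that reached 5 FPKM, ranges apart and no group at 0, and up to 4 called members of each list (2 of each marker list) with the smallest adjusted p, or 2 as values where none passed. Some genes that this rule names are not reported here. Others are named because their role is of interest and were chosen after their values were seen. Symbols and promoters came from RefSeq tables (GRCm38.p6), not from mm9. Other steps used matplotlib 3.10.9, scipy 1.17.1, numpy 2.4.6 and pandas 2.3.3 in Python 3.11.15.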

Additional observations from a re-analysis of the deposited data

Results flagged for a closer look

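For 7 of the named genes the 24 h response in wild type differed from that in heterozygotes by limma's test of the difference between the 2 responses, on the log2(FPKM + 1) scale with adjustment over 12846 genes; no cause was tested. Heterozygous values are given as the lowest, median and highest of 3 mice.

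Hnf4a differed by -1.728 ± 0.288 (SE; adjusted p = 0.00945), with 1.28, 2.46 and 1.82 FPKM in WT 24 h mice, against 6.48, 5.87 and 8.21 FPKM in WT saline mice, and with 3.51, 4.71 and 5.36 FPKM in heterozygous 24 h mice, against 2.98, 3.13 and 4.83 FPKM in heterozygous saline mice. Gjb1 differed by 1.745 ± 0.443 (adjusted p = 0.0428), with 1.4, 2.11 and 2.45 FPKM in heterozygous 24 h mice, against 37.5, 44 and 61 FPKM in heterozygous saline mice. It was thus lower at 24 h in both genotypes.

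Top2a differed by 1.571 ± 0.377 (adjusted p = 0.0334), with 5.94, 6.34 and 6.85 FPKM in heterozygous 24 h mice, against 2.11, 3.32 and 3.61 FPKM in heterozygous saline mice. Sparc, a matricellular protein, differed by 1.441 ± 0.321 (adjusted p = 0.0228), with 112, 116 and 141 FPKM in heterozygous 24 h mice, against 69.8, 134 and 134 FPKM in heterozygous saline mice. For both genes heterozygous saline mice were higher than the WT saline mice, at 1.19, 0.665 and 1.63 FPKM for Top2a and at 48.1, 48.5 and 66.7 FPKM for Sparc.

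Fabp4, a fatty acid carrier of adipocytes and macrophages, differed by 3.24 ± 0.588 (adjusted p = 0.0102), with 31.8, 41.3 and 66.7 FPKM in heterozygous 24 h mice, against 114, 139 and 172 FPKM in heterozygous saline mice. Pparg, a nuclear receptor of adipocytes, differed by 1.301 ± 0.283 (adjusted p = 0.0193), with 1.51, 1.66 and 1.9 FPKM in heterozygous 24 h mice, against 1.7, 1.83 and 2.84 FPKM in heterozygous saline mice. Me1 differed by 2.6 ± 0.491 (adjusted p = 0.0123), with 2.94, 3.69 and 3.9 FPKM in heterozygous 24 h mice, against 5.98, 7.63 and 28.1 FPKM in heterozygous saline mice. For Fabp4, Pparg and Me1 too every heterozygous saline mouse was above every WT saline mouse, which for Me1 had 1.01, 1.57 and 0.563 FPKM. With adipocyte and B cell marker levels as covariates no gene passed this test. Fabp4 and Pparg belong to the adipocyte list that gives the covariate, so for them that fit holds their own values and is no separate test.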

How the results depend on the processing

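The scaling had the largest effect on the counts. Higher and lower genes numbered 2630 and 2403 as deposited and 2783 and 2306 when scaled by the median ratio. They numbered 4390 and 1385 when scaled to the protein-coding total, and 7194 and 491 when scaled to the total. Both totals leave out enzymes, granule proteins and Reg genes, and the whole total also holds features not listed as protein-coding. With a filter at 5 FPKM, under which fewer genes are tested, 1734 were higher and 1875 lower. With the spread taken from the compared groups alone 1547 were higher and 1634 lower. With the adipocyte and B cell marker covariates 1797 were higher and 1688 lower. Leaving out 1 library gave 2049 to 2588 higher and 1969 to 2356 lower. The 295 genes whose response differed between genotypes became 0 with marker covariates, 47 when scaled to the total, 99 when the spread came from those groups only, and 129 to 619 with 1 library left out. Of 159 named genes 152 passed the limma test; 120 of them had the same call under each alternative tried and 144 without any 1 library. The sign turned when scaled to the total for Srebf1 (0.0384), Gpam (0.13), Rora (0.0342), Cry1 (0.0112) and Mbp (0.28), which had passed, and for Hba-a1 (0.29), which had not. It also turned for Nkg7 (-0.0555 with marker covariates, and -0.2231 to 1.0399 with 1 library left out) and for Vil1 (-0.3203 to 0.3398 with 1 library left out), neither of which passed. The cause was not tested.

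No paired analysis was possible because the titles carry no replicate numbers and nothing in the labels ties a 24 h mouse to a saline mouse. Depth is unknown, so genes near 1 FPKM cannot be told from noise of counting, and 3 animals against 3 show only large or even differences.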
